A study of Mus musculus with 12 samples.

Results

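Imprinted genes are read mainly from one parental copy. The 10 examined here were Meg3, Rian, Dlk1, H19, Peg3, Nnat, Grb10, Plagl1, Mest and Gnas, taken by symbol from the 23234 gene rows of the deposited table. All 10 had a row of their own. RNA sequencing had been done on pancreatic islets of C57BL/6 mice, either freshly isolated or grafted into inguinal subcutaneous white adipose tissue, which is fat of the groin. The 12 libraries were grafts taken at day 60 (4 libraries), grafts taken at day 120 (4 libraries) and isolated islets that had not been transplanted (4 libraries). No genotype, drug or animal age was given for any group, and no label says whether libraries came from separate animals, so p-values measure only the spread seen among the libraries, and part of it may be technical. A graft library holds RNA of islet cells together with RNA of the fat around them, and fewer cells of a type cannot be told apart from less RNA per cell.

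In imprinting, DNA methylation set in the egg or the sperm marks a control region, and the mark decides which parental copy of the genes nearby is read. Many imprinted genes act on growth, are high in the fetus and fall after birth, while a subset stays active in adult endocrine cells and neurons. The non-coding RNAs Meg3, Rian and Mirg are read in one direction from the maternal copy of a cluster on chromosome 12, and the paternal copy carries Dlk1, which encodes a transmembrane regulator of preadipocytes. H19 is the maternal non-coding RNA beside Igf2. Peg3 (a zinc finger protein), Nnat (the small membrane proteolipid neuronatin), Plagl1 (a zinc finger transcription factor) and Mest (a hydrolase-like protein linked to fat cell growth in mice) are read from the paternal copy. Grb10, an adaptor that restrains insulin and IGF receptor signalling, is maternal in most tissues, and Gnas encodes the stimulatory G protein alpha subunit with a parental bias that differs between tissues. The table gives 1 value per gene and does not separate the parental copies.

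Promoter windows from RefSeq (build GRCm38.p6, 250 bases before to 50 bases after an annotated start) are printed below. Each CG dinucleotide, the site of methylation, is in capitals. An annotated start need not be a separate promoter. The table matched 9 of the 10 genes, with 16 windows, and the build differs from the mm9 build of the deposited values. Meg3 and Rian are shown because their levels moved together over the 12 libraries, though not within the isolated islets. Peg3 and its maternal neighbour Zim1 are shown because they too moved together over the 12 libraries, and Plagl1 and Mest because they changed in both graft groups. All run 5′ to 3′ on the gene's own strand. The windows are chr12:109540746-109541045 (plus strand) for Meg3, chr12:109603695-109603994 (plus) for Rian, chr7:6730370-6730669 (minus) for Peg3, chr7:6696383-6696682 (minus) for Zim1, chr10:13090582-13090881 (plus) for Plagl1 and chr6:30737800-30738099 (plus), 1 of 3 annotated windows, for Mest.
Meg3: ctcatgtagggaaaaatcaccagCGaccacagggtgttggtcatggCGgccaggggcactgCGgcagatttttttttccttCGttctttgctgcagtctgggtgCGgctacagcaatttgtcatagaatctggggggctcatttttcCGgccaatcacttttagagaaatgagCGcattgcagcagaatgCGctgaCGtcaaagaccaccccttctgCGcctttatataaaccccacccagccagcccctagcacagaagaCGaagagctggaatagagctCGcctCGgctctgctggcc
Rian: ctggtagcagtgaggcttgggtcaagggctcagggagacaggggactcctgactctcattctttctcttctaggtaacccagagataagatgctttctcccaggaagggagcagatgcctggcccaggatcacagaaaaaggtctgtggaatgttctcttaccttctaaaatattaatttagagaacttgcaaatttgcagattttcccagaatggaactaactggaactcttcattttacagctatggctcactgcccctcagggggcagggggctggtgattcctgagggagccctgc
Peg3: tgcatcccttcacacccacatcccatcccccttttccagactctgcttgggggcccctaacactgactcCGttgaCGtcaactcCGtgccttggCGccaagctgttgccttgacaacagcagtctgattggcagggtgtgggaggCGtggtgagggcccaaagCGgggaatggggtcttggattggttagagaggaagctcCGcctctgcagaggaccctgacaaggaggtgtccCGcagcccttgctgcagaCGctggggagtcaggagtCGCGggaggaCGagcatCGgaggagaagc
Zim1: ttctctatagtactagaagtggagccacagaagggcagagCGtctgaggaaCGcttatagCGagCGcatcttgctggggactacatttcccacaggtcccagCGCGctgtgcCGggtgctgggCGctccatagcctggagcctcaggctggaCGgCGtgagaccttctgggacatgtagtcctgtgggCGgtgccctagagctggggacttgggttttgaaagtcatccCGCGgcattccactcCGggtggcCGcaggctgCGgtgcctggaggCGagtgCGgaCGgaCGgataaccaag
Plagl1: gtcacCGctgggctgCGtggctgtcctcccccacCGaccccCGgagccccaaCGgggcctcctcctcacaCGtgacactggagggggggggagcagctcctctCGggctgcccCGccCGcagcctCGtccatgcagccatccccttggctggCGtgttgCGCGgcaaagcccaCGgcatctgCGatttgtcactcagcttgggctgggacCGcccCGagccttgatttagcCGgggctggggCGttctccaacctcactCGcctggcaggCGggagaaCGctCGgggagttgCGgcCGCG
Mest: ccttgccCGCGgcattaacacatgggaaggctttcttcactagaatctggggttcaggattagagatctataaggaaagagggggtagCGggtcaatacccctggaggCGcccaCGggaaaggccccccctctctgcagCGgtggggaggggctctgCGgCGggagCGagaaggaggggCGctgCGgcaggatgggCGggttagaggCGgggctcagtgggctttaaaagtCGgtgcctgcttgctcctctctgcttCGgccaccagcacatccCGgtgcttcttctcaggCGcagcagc

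The Meg3 window shown, 1 of 2 annotated, held 13 CG dinucleotides and the Rian window 0. The median was 7 over 32841 promoter windows, of which 5.42% held none. Peg3 had 13, Mest 17, Zim1 20 and Plagl1 26, more than 83.1% of all windows for Plagl1. The hexamer TGCCGC, the core of the motif bound by the imprint-protecting protein ZFP57, was searched on both strands. It occurred in the Meg3, Zim1, Plagl1 and Mest windows shown (1, 1, 1 and 2 matches) and in 11.6% of all windows, and the Rian and Peg3 windows held 0 matches. TATAAA, searched on both strands, was present in the Meg3 window in 2 overlapping matches, the nearer starting 25 bases before the annotated start. It was present in 13.6% of all windows. The other annotated Meg3 window, not shown, held 1 CG dinucleotide, with 0 matches to TGCCGC and 0 to TATAAA. These matches describe letters and not bound sites, and which annotated start was used in these libraries is not shown by a table of gene totals.

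Values were FPKM, a fragment number divided by gene length and by the library's mapped total, made by the authors, and can be set against each other between genes. In isolated islets the 10 genes spanned from Gnas at 650 ± 52.9 FPKM to H19 at 0.0388 ± 0.0571 (SD, n = 4, as for all values with ± below). Meg3 stood at 343 ± 37.6, Peg3 at 136 ± 25.5, Rian at 131 ± 11.8, Nnat at 19.1 ± 0.946, Grb10 at 10.3 ± 1.16, Plagl1 at 6.95 ± 1.27, Mest at 2.33 ± 0.542 and Dlk1 at 0.343 ± 0.112 FPKM. Gnas and Meg3 were thus higher than 99.8% and 99.4% of all rows, whereas Dlk1 and H19, both strongly read in fetal tissue, were higher than 39.2% and 26.3%. Of neighbours in this order, the ranges of Peg3 and Rian overlapped and all others were separate. In the grafts Gnas and Meg3 again had the highest means, with Gnas at 777 ± 232 FPKM at day 60 and 791 ± 113 at day 120, but the ranges of Gnas, Meg3, Rian and Peg3 ran into each other in both graft groups.

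**Figure D1:**
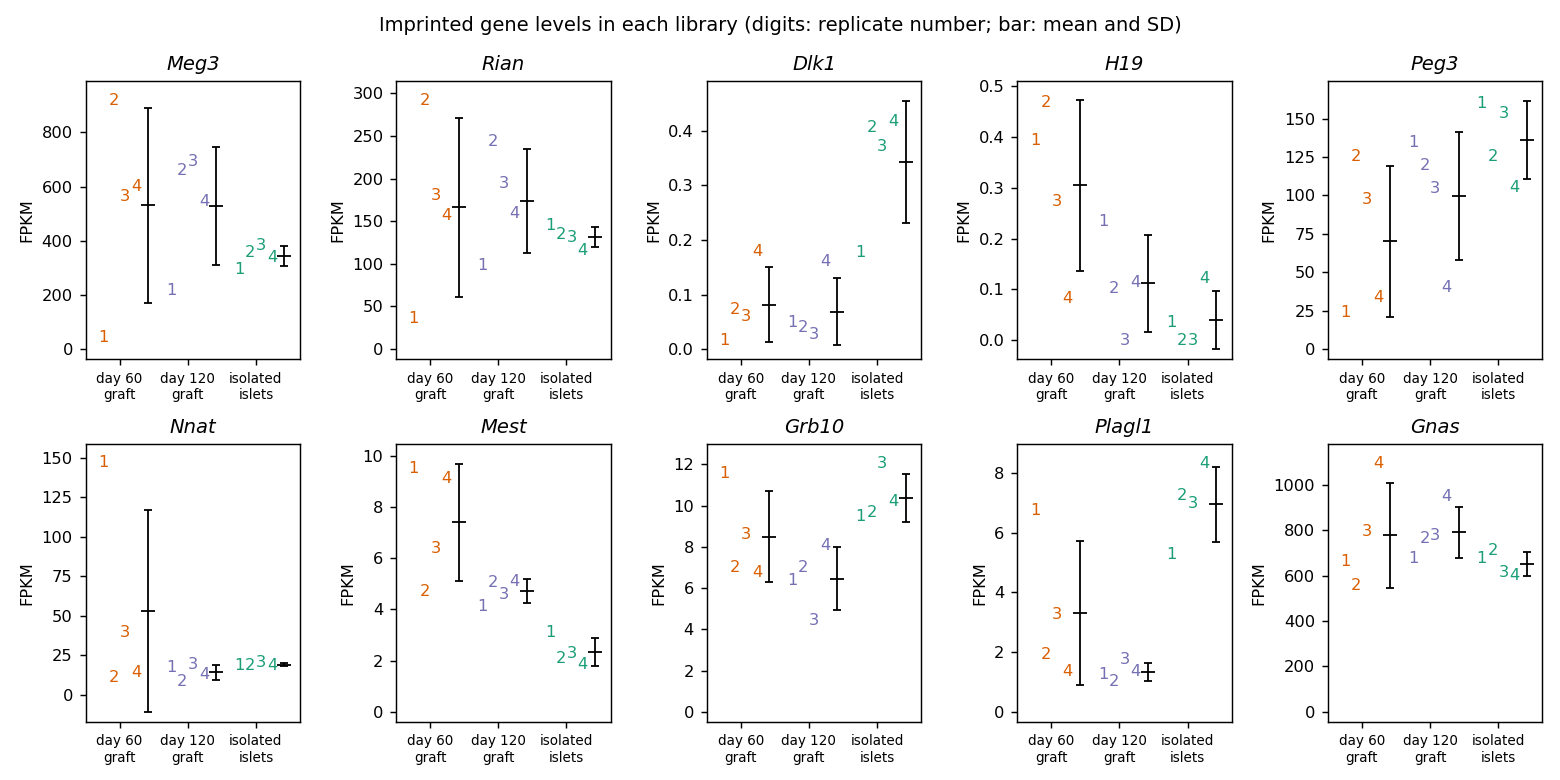
FPKM of each of the 10 imprinted genes in every library, with day 60 grafts, day 120 grafts and isolated islets from left to right. Digits give the replicate number, and bars give the mean and SD of 4 libraries. Mest lies higher and Plagl1 lower in day 120 grafts than in every isolated islet library, and the graft libraries spread far more than the isolated islets for Meg3, Rian and Peg3.

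The labelled tissue was checked with cell type markers. All 19 endocrine markers were above 0 in all 12 libraries, and they summed to 4843 to 17611 FPKM in day 60 grafts, 15851 to 18379 in day 120 grafts and 12109 to 14596 in isolated islets. The 18 fibroblast and mesenchyme markers summed to 946 to 7063 FPKM in day 60 grafts, 418 to 1020 in day 120 grafts and 31.3 to 45.8 in isolated islets. The 12 adipocyte markers summed to 352 to 11785, 286 to 1131 and 72.1 to 75.8 FPKM, the 9 macrophage markers to 457 to 4491, 323 to 543 and 55.3 to 83.6, and the 10 endothelial markers to 87.8 to 241, 70.5 to 187 and 79.9 to 103, in that order of groups. No marker of these 5 lists was at 0 throughout a group. The 12 acinar markers summed to 7.79 to 20.5 FPKM at day 60, 4.18 to 9.64 at day 120 and 6755 to 77224 in isolated islets, with Ptf1a, Amy2a5, Cpb1 and Cela3b at 0 in all grafts. Day 60 graft replicate 1 stood apart before any result below, with the lowest endocrine sum (4843 FPKM) and the highest fibroblast, adipocyte and macrophage sums of all 12 libraries.

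A test was made for 8 of the 10 genes, those with 1 FPKM or more in 4 or more libraries, among 13433 such genes, with limma on log2(FPKM + 1), with Benjamini-Hochberg adjustment and a threshold of 0.05. In day 60 grafts against isolated islets 2 of the 8 changed, Mest upwards and Plagl1 downwards, where 43.7% of all tested genes changed (31.3% higher, 12.3% lower). In day 120 grafts against isolated islets 3 of the 8 changed, Mest again upwards and Plagl1 and Grb10 downwards, where 31.4% of all tested genes changed (24.3% higher, 7.03% lower). The shares of called genes were therefore below the background at day 60 and near it at day 120, and they are no result about imprinted genes as a group. The 2 graft comparisons share the same isolated islets. The median log2 change of the 8 was 0.0048 at day 60 and -0.09 at day 120, beside 0.27 and 0.30 over all tested genes. In day 120 against day 60 grafts 0 of 8 changed, where 0.0149% of all tested genes changed (0.00744% in each direction). Of these 8, 2 had an unadjusted p under 0.05, Mest and Plagl1, each with a limma adjusted p of 0.490. The share of all tested genes under that unadjusted threshold is not given, so it is no result about the members. With the replicate number as a block 0 of the 8 were called. With array weights, a setting that called 21.4% of all tested genes, 4 were called, all lower. Ranges did not overlap for 1 of 8 at day 60 (higher; 22% of tested genes higher and 9.01% lower, 31.1% in all) and for 3 of 8 at day 120 (1 higher, 2 lower; 28.3% and 7.24%, 35.5% in all). Between day 120 and day 60 this held for 0 of 8 (2.91% higher, 1.38% lower, 4.29% in all).

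Mest, whose RNA rises with fat expansion in mice, was the member most clearly higher in grafts. In replicates 1 to 4 it had 9.48, 4.68, 6.36 and 9.09 FPKM in day 60 grafts, 4.11, 5.06, 4.57 and 5.10 FPKM in day 120 grafts and 3.10, 2.06, 2.28 and 1.86 FPKM in isolated islets. Every graft library lay above every isolated islet library, a separation upwards that 22% of tested genes showed at day 60 and 28.3% at day 120. The rise was 1.31 on the log2(FPKM + 1) scale at day 60 (SE 0.210, limma adjusted p = 0.00091) and 0.79 at day 120 (SE 0.210, adjusted p = 0.0163). Day 120 grafts had less Mest than day 60 grafts by a log2 difference of -0.52 (95% interval -0.97 to -0.06, adjusted p = 0.490), and the ranges overlapped. The day 60 rise passed under all 14 other settings and without each library. The day 120 call did not survive leaving out isolated islet replicate 2 (0.75, limma adjusted p = 0.0526) or 4 (0.72, 0.0566), nor was it made when values were scaled to endocrine markers (0.46, 0.546) or quantile normalized (0.36, 0.196). In this order those settings called 14.2%, 13.8%, 3.19% and 25% of all tested genes at day 120, against 31.4% in the fit above. Adipocyte, fibroblast and macrophage marker sums were higher in all grafts than in all isolated islets too. Day 60 replicate 4, with 9.09 FPKM of Mest, had sums of 352, 1121 and 562 FPKM in this order, the first being the lowest of its group. Isolated islets had 72.1 to 75.8, 31.3 to 45.8 and 55.3 to 83.6 FPKM. The part of these cell types in the rise was not tested. Mest partly overlaps Copg2, a coat protein gene whose row also rose, by 0.53 at day 60 (limma adjusted p = 0.0373) and 0.63 at day 120 (0.0258), and whether reads were assigned by strand is not given in the sources used here.

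Plagl1, also known as Zac1, a factor that restrains proliferation and acts on other imprinted genes in mice, was lower in grafts. It had 6.72, 1.93, 3.25 and 1.36 FPKM in day 60 grafts, 1.26, 1.03, 1.74 and 1.33 FPKM in day 120 grafts and 5.26, 7.24, 6.97 and 8.31 FPKM in isolated islets. All day 120 grafts lay below all isolated islets, a separation downwards that 7.24% of tested genes showed. At day 60 only replicate 1, the library rich in fat and fibroblast RNA, overlapped the islets. The fall was -1.76 at day 120 (SE 0.306, limma adjusted p = 0.00312) and -1.02 at day 60 (SE 0.306, adjusted p = 0.0180), with a difference of -0.74 between day 120 and day 60 (95% interval -1.40 to -0.08, adjusted p = 0.490). Plagl1 was lower at day 120 in 4 of 4 same-numbered graft pairs, and with the number as a block over the 8 grafts the adjusted p was 0.361. The day 120 fall passed without each library and under 13 of 14 other settings, the exception being scaling to endocrine markers (-2.04, adjusted p = 0.0627). The day 60 fall did not pass when isolated islet replicate 4 was left out (-0.94, limma adjusted p = 0.0542), without both grafts numbered 4 (-0.78, 0.0628) and with scaling to endocrine markers (-0.75, 0.321). In this order those settings called 31.4%, 39.8% and 23.9% of all tested genes at day 60, against 43.7% in the fit above. Scaling to endocrine markers called 3.19% at day 120. Without day 60 replicate 1 it was larger, -1.35. Acinar marker sums were 7.79 to 20.5 FPKM at day 60, 4.18 to 9.64 at day 120 and 6755, 59563, 15468 and 77224 in isolated islet replicates 1 to 4, an order in the islets that Plagl1 shared, and their part in the fall was not tested.

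Grb10 had 11.6, 7.001, 8.58 and 6.77 FPKM in day 60 grafts, 6.38, 7.004, 4.40 and 8.06 FPKM in day 120 grafts and 9.47, 9.68, 12.03 and 10.2 FPKM in isolated islets. Each day 120 graft lay below each isolated islet library, and day 60 replicate 1 was again the one highest among the grafts. The day 120 fall was -0.62 (SE 0.201, limma adjusted p = 0.0338) and the day 60 difference was -0.28 (95% interval -0.72 to 0.15, adjusted p = 0.273). The day 60 difference passed with upper-quartile scaling (-0.49, limma adjusted p = 0.0478), with scaling to the sum without hormone and acinar genes (-0.56, 0.0344) and with quantile normalization (-0.50, 0.0467). The day 120 call was fragile. It was lost without isolated islet replicates 2, 3 or 4 (adjusted p = 0.0706, 0.0993 and 0.0791), without day 120 replicates 1, 2 or 3 (0.0622, 0.0578 and 0.0987), with the replicate number as a block over all 12 libraries (0.0533) and with scaling to endocrine markers (0.224). Its direction was the same in each of these. Calls over all tested genes at day 120, 31.4% in the fit above, fell as well. They were 14.2%, 14.5% and 13.8% without those islet replicates and 24.2%, 19.1% and 21.2% without those day 120 replicates. They were 3.19% with scaling to endocrine markers and 31.7% with the block.

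**Figure D2:**
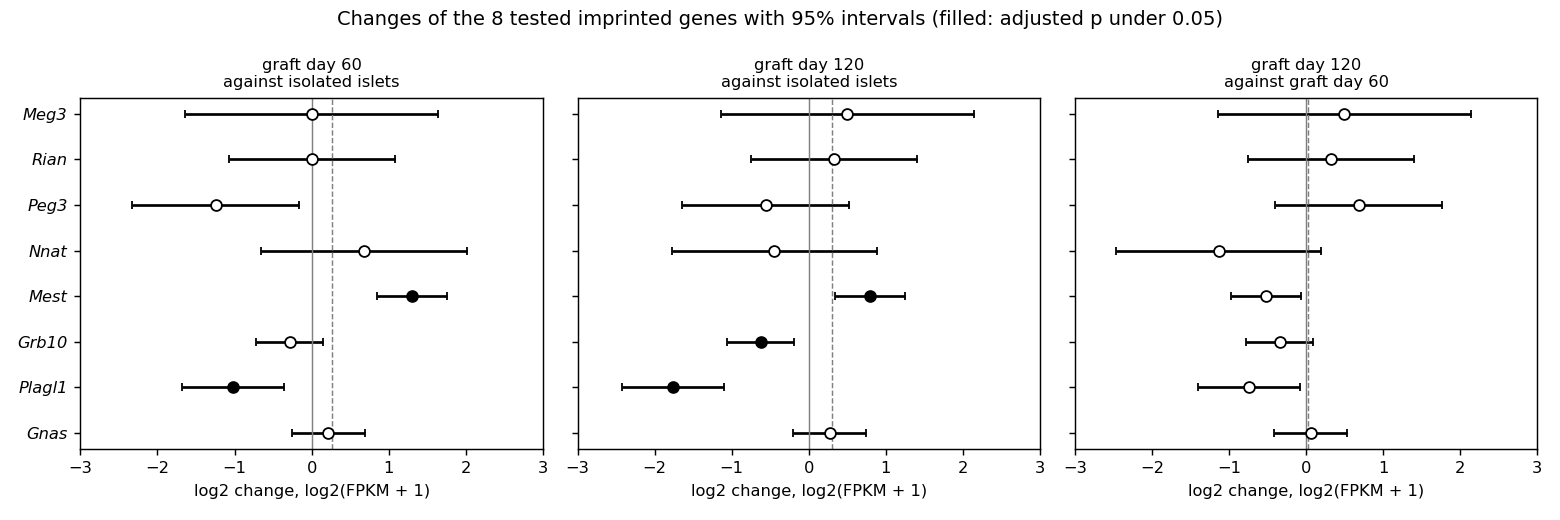
Log2 changes of the 8 tested imprinted genes, with 95% intervals of the limma fit, for day 60 grafts against isolated islets, day 120 grafts against isolated islets and day 120 against day 60 grafts. Filled points passed an adjusted p of 0.05, and the dashed line marks the median change of all tested genes. Mest and Plagl1 are filled in both comparisons with isolated islets, Grb10 in the day 120 comparison, and the intervals of Meg3 and Nnat are the widest.

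The maternal non-coding RNAs of chromosome 12 were at high levels in all groups and did not pass any of the 3 comparisons, yet single grafts differed widely. Meg3 had 43.5, 916, 562 and 599 FPKM in day 60 grafts, 217, 661, 694 and 545 FPKM in day 120 grafts and 293, 358, 382 and 339 FPKM in isolated islets. Replicates 2, 3 and 4 of both graft groups lay above every isolated islet library and replicate 1 of both lay below every one. The coefficient of variation was 68.2% at day 60 and 41.2% at day 120, against 10.95% in isolated islets. The log2 difference from isolated islets was 0.0010 at day 60 (95% interval -1.64 to 1.64, limma adjusted p = 0.999) and 0.50 at day 120 (-1.15 to 2.14, 0.630). Both intervals reach past 1 in each direction. The fit takes 1 spread per gene from all 12 libraries, so the day 120 interval also carries the day 60 spread. With only the libraries compared, the limma adjusted p at day 120 was 0.226. Without both grafts numbered 1, an alternative chosen after the values were seen, Meg3 was higher by 0.98 at day 60 (adjusted p = 0.00277) and by 0.88 at day 120 (0.00613). Leaving out day 60 replicate 1 alone gave 0.98 (0.0320) at day 60. It also passed at day 60 with array weights (0.65, 0.0382).

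Rian, the host RNA of many small nucleolar RNAs, was likewise lowest among the grafts in replicate 1 at both times. It had 36.3, 291, 181 and 156 FPKM in day 60 grafts, 98.3, 243, 194 and 160 FPKM in day 120 grafts and 144, 135, 131 and 116 FPKM in isolated islets. Mirg, the host of a microRNA cluster further along, had 2.54, 29.2, 18.7 and 27.1 FPKM at day 60, 10.3, 29.3, 24.1 and 18.8 FPKM at day 120 and 11.4, 10.9, 7.963 and 7.995 FPKM in isolated islets. Mirg too was lowest among the grafts in replicate 1, while the order of the other libraries differed between the 3 RNAs. Over the 12 libraries Pearson's r of log2(FPKM + 1) with Meg3 was 0.97 for Rian and 0.92 for Mirg, a description of rows from one stretch of the genome that share their libraries. Within isolated islets they did not move together. There replicate 1 had the lowest Meg3 (293 FPKM) and the highest Rian and Mirg (144 and 11.4 FPKM). Rian differed from isolated islets by 0.0086 at day 60 (limma adjusted p = 0.990) and 0.33 at day 120 (0.626), and Mirg by 0.58 (0.425) and 0.96 (0.203). Without both grafts numbered 1, Rian passed at day 60 (0.62, adjusted p = 0.0380), and it did so too with array weights (0.48, 0.0273).

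The ratio of Rian to Meg3 within a library does not depend on the scaling between libraries. It was 0.836, 0.318, 0.322 and 0.261 in day 60 grafts, 0.454, 0.368, 0.280 and 0.293 in day 120 grafts and 0.493, 0.376, 0.343 and 0.342 in isolated islets. Replicate 1, where Meg3 was lowest, had the highest ratio in each of the 3 groups. The mean log2 ratio differed from isolated islets by 0.0076 at day 60 (exact two-sided permutation p = 1) and by -0.17 at day 120 (exact permutation p = 0.429), and day 120 differed from day 60 by -0.18 (exact permutation p = 0.800). Adjusted over the 6 ratio tests these were 1, 0.960 and 0.960, and 4 against 4 libraries allow no p below 0.0286. For Dlk1 over Meg3 the differences were -0.31 at day 60 (exact permutation p = 0.771), -0.83 at day 120 (0.143) and -0.51 between day 120 and day 60 (0.800), with adjusted values of 0.960, 0.857 and 0.960. With Dlk1 below 0.5 FPKM everywhere and 1 FPKM added, this second ratio followed Meg3 almost alone. With 0.1 FPKM added instead, it differed by -1.31 at day 60 (exact permutation, adjusted p = 0.514) and -1.91 at day 120 (0.171).

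Most microRNA rows of the chromosome 12 cluster were listed at 0. Between Dlk1 and Dio3 the table had 69 rows, of which 56 were microRNAs. Of these, 43 were listed at 0 in all 12 libraries, and 1, Mir1906-1, was above 0 in all. Mir1906-1 lies inside Meg3 and had 297 to 8761 FPKM in day 60 grafts, 1390 to 5596 in day 120 grafts and 2511 to 4123 in isolated islets, from 6.42 to 10.8 times the Meg3 value of the same library, so its reads cannot be told apart from Meg3 fragments. It was chosen after its values were seen.

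Dlk1 and H19 did not reach the level needed for the test. Dlk1 had 0.016, 0.073, 0.060 and 0.178 FPKM in day 60 grafts, 0.049, 0.039, 0.026 and 0.160 FPKM in day 120 grafts and 0.177, 0.406, 0.371 and 0.417 FPKM in isolated islets. H19 had 0.394, 0.468, 0.274 and 0.083 FPKM in day 60 grafts, 0.233, 0.101, 0 and 0.113 FPKM in day 120 grafts and 0.034, 0, 0 and 0.121 FPKM in isolated islets. Graft Dlk1 was thus mostly below and day 60 H19 mostly above the isolated islets, all at levels where the read number behind a value is unknown. With no filter on low values, limma called Dlk1 lower at day 60 (-0.31, adjusted p = 0.00769) and day 120 (-0.33, 0.0115) and H19 higher at day 60 (0.32, 0.0203) but not at day 120 (0.0956, 0.489). Adding 1 FPKM leaves little of a ratio at such levels.

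**Figure D3:**
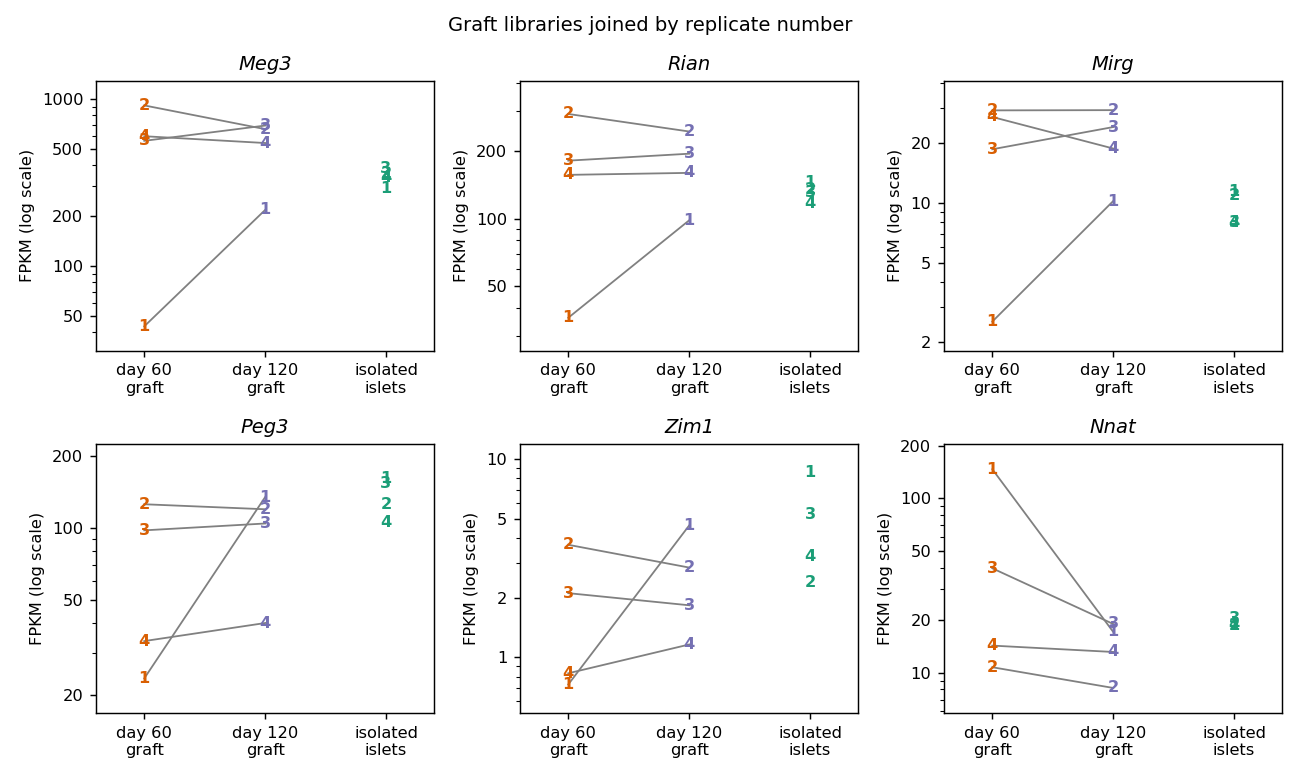
FPKM on a log scale of Meg3, Rian, Mirg, Peg3, Zim1 and Nnat, with day 60 and day 120 grafts of the same replicate number joined by lines and isolated islets at the right. Replicate 1 is the lowest graft at both times for Meg3, Rian and Mirg, and replicate 4 is low at both times for Peg3 and Zim1.

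Peg3, a zinc finger protein gene that is also active in adult stem and progenitor cells of mice, split the grafts in another way. It had 23.5, 125, 97.6 and 33.7 FPKM in day 60 grafts, 134, 120, 104 and 40.1 FPKM in day 120 grafts and 160, 125, 154 and 105 FPKM in isolated islets. Replicate 4 was far below the isolated islets at both times, replicate 1 at day 60 alone, and the other grafts reached into or just below the islet range. The log2 difference from isolated islets was -1.25 at day 60 (95% interval -2.33 to -0.16, limma adjusted p = 0.0599) and -0.56 at day 120 (-1.65 to 0.52, 0.398). The day 60 difference passed with the replicate number as a block (-1.25, adjusted p = 0.0362), with upper-quartile scaling (-1.47, 0.0369), with scaling to the sum without hormone and acinar genes (-1.54, 0.0414), and without day 60 replicate 2 (-1.63, 0.0191), day 60 replicate 3 (-1.51, 0.0432) or day 120 replicate 4 (-1.25, 0.0421). Zim1, its maternally read neighbour, had 0.730, 3.69, 2.11 and 0.831 FPKM in day 60 grafts, 4.62, 2.84, 1.83 and 1.16 FPKM in day 120 grafts and 8.53, 2.38, 5.23 and 3.23 FPKM in isolated islets. The day 60 libraries low in Peg3, replicates 1 and 4, were low in Zim1 too, and so was day 120 replicate 4. The ratio of Zim1 to Peg3 ran between 0.0216 and 0.0310 in day 60 grafts, 0.0176 and 0.0344 in day 120 grafts and 0.0190 and 0.0533 in isolated islets. Zim1 differed from isolated islets by -1.05 at day 60 (limma adjusted p = 0.0504) and -0.67 at day 120 (0.211). Its pattern was singled out after the values were seen.

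Nnat, which encodes a small membrane protein that assists insulin secretion in mouse beta cells, was nearly constant in isolated islets and uneven in day 60 grafts. It had 147, 10.7, 39.7 and 14.3 FPKM in day 60 grafts, 17.1, 8.16, 19.01 and 13.1 FPKM in day 120 grafts and 18.6, 18.6, 20.5 and 18.8 FPKM in isolated islets. Replicates 1 and 3 at day 60, the libraries with the highest adipocyte and fibroblast sums, lay above all isolated islets, and replicates 2 and 4 lay below all of them. The log2 difference was 0.68 at day 60 (95% interval -0.65 to 2.01, limma adjusted p = 0.386) and -0.45 at day 120 (-1.78 to 0.88, 0.588). Day 120 was below day 60 in 4 of 4 same-numbered graft pairs (log2 difference -1.13, limma adjusted p = 0.514, and 0.363 with the number as a block over the 8 grafts). Without day 60 replicate 1 the day 60 value was -0.05. With array weights it was 0.95 and passed (adjusted p = 0.00972). Nnat lies inside the span of Blcap, whose row had 18.1 ± 3.16 FPKM at day 60, 19.8 ± 1.27 at day 120 and 12.1 ± 4.95 in isolated islets and rose at day 120 (0.74, limma adjusted p = 0.0301). Its reads could be split between the 2 rows only as the authors' counting allowed.

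Gnas, the most abundant member, passed no comparison. It had 663, 557, 794 and 1094 FPKM in day 60 grafts, 677, 763, 775 and 947 FPKM in day 120 grafts and 675, 713, 613 and 600 FPKM in isolated islets. The log2 difference was 0.21 at day 60 (95% interval -0.26 to 0.69, limma adjusted p = 0.444) and 0.27 at day 120 (-0.20 to 0.75, 0.344), and its sign turned with the scaling between libraries. With array weights, which called 77.1% of all tested genes at day 60, it passed there (0.27, limma adjusted p = 0.0340). RefSeq gives Gnas 4 promoter windows, and 1 row sums its transcripts, so a shift between them would not be seen.

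**Figure D4:**
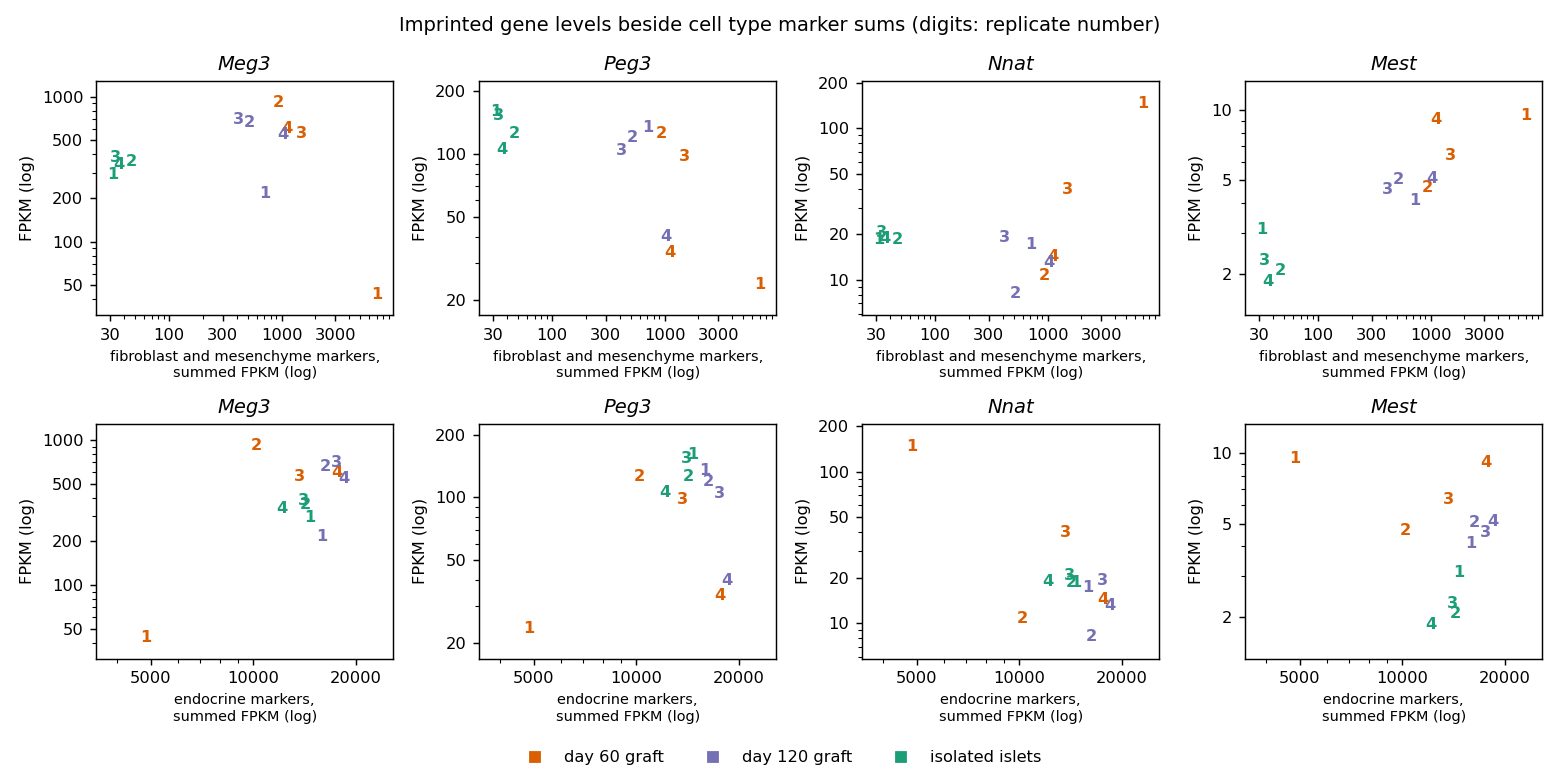
FPKM of Meg3, Peg3, Nnat and Mest in each library against the summed FPKM of fibroblast and mesenchyme markers (upper row) and of endocrine markers (lower row), all on log scales. Digits give the replicate number, and colours give day 60 grafts, day 120 grafts and isolated islets. Day 60 replicate 1 is at the edge of each panel, while replicate 4 of both graft groups is low in Peg3 with endocrine sums of 17611 and 18379 FPKM, the highest of their groups.

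Set beside the markers, day 60 replicate 1 combined the lowest Meg3, Rian, Mirg and Peg3 of all 12 libraries and the highest Nnat and Mest with 4843 FPKM of endocrine and 7063 FPKM of fibroblast markers. The part of cell mixture in these values was not tested. Day 120 replicate 1 had the lowest Meg3 of its group, 217 FPKM, at an endocrine sum of 15851 FPKM. That sum was the lowest of its group and above every isolated islet library. Of its large parts, Scg2 was 3808 FPKM, against 1867 to 2306 in isolated islets, and Chga 5466, against 5745 to 6767. A higher sum thus does not mean that each endocrine marker was higher. Peg3 was 33.7 and 40.1 FPKM in replicate 4 at day 60 and day 120, where endocrine sums were 17611 and 18379 FPKM.

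Among 11984 named genes tested, those whose pattern over the 12 libraries was most like a member's were picked by Pearson's r of log2(FPKM + 1), as a description with no test. For Plagl1 the nearest was Cdkn1a, a cyclin-dependent kinase inhibitor (r = 0.96), at 14.1 FPKM in day 60 grafts, 8.45 in day 120 grafts and 39.2 in isolated islets, followed by Amy1 (0.95). For Mest the nearest were Gpnmb, a lysosome-associated glycoprotein of macrophages (0.96, with means of 32.4 FPKM at day 60, 8.66 at day 120 and 0.129 in isolated islets), and Pop1 (0.96). Grb10 was nearest to Plk2 (0.94) and Smad3 (0.93), Nnat to the small heat shock protein gene Hspb8 (0.97) and Lmo4 (0.96), and Peg3 to Med12l and Hook1 (0.96 each). Meg3 was nearest to Olfr613 and Slc25a27 (0.98 each), Rian to Ddx26b and Odf2l (0.98 each), and Gnas to Npdc1 and Stub1 (0.91 each). The untested Dlk1 was nearest to Prph (0.97) and Zswim4 (0.96), and H19 to Stap1 (0.94) and Stk17b (0.93).

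A wider list of 54 other genes, imprinted in at least some mouse tissues, put the members beside their kind. Of these 33 were tested. At day 60, 7 rose and 7 fell against isolated islets, beside 31.3% higher and 12.3% lower over all tested genes, and at day 120, 5 rose and 4 fell, beside 24.3% and 7.03%. The median log2 change was -0.03 at day 60 and 0.05 at day 120, and 0 of 33 changed between day 120 and day 60. An unadjusted p under 0.05 was reached by 3, each with a limma adjusted p of 0.490, and the share of all tested genes under that threshold is not given. Cdkn1c, the maternally read cyclin-dependent kinase inhibitor, rose to 8.59 ± 5.66 FPKM in day 60 grafts and 3.72 ± 1.72 in day 120 grafts, against 1.05 ± 0.384 in isolated islets (log2 2.08, limma adjusted p = 0.00125, and 1.16, 0.0287). The sialic acid acetyltransferase gene Casd1 rose by 1.31 and 1.398 (limma adjusted p = 0.00424 and 0.00634) in the same order. Casd1 had 8.83, 3.33, 2.86 and 2.22 FPKM in isolated islet replicates 1 to 4, and the lowest graft, day 60 replicate 1, had 8.90 FPKM. At day 60 the sarcoglycan gene Sgce (1.20), the AMP deaminase gene Ampd3 (1.19) and Commd1 (1.05) rose as well (limma adjusted p = 0.0189, 0.0088 and 0.0155), and none of these 3 passed at day 120. Their day 60 means included replicate 1, with 28.0 FPKM of Sgce, 7.16 of Ampd3 and 57.7 of Commd1.

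Those that fell included the actin nucleator gene Cobl and the Ras exchange factor gene Rasgrf1. Cobl had 0.912 ± 0.346 FPKM at day 60 and 1.37 ± 0.0765 at day 120, against 3.80 ± 0.865 in isolated islets (log2 -1.33, limma adjusted p = 0.000515, and -1.001, 0.00414). Rasgrf1 had 15.4 ± 6.31 and 16.8 ± 4.90 FPKM, against 37.8 ± 4.97 in isolated islets (-1.35, 0.0052, and -1.16, 0.0171). Igf2r, the receptor that clears IGF2, fell at day 60 (-0.78, limma adjusted p = 0.0105) and stood at -0.37 at day 120 (0.191). Peg10, a gene derived from a retrotransposon, fell at day 120 (-0.68, limma adjusted p = 0.0340) and stood at -0.47 at day 60 (0.0970). Igf2 (3.75 ± 4.23 FPKM at day 60, 1.80 ± 0.863 at day 120 and 1.81 ± 0.522 in isolated islets) and the neuronal gene Ndn (20.2 ± 5.42, 20.2 ± 5.30 and 17.6 ± 2.41) did not pass. Igf2 was 10.1 FPKM in day 60 replicate 1.

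**Figure D5:**
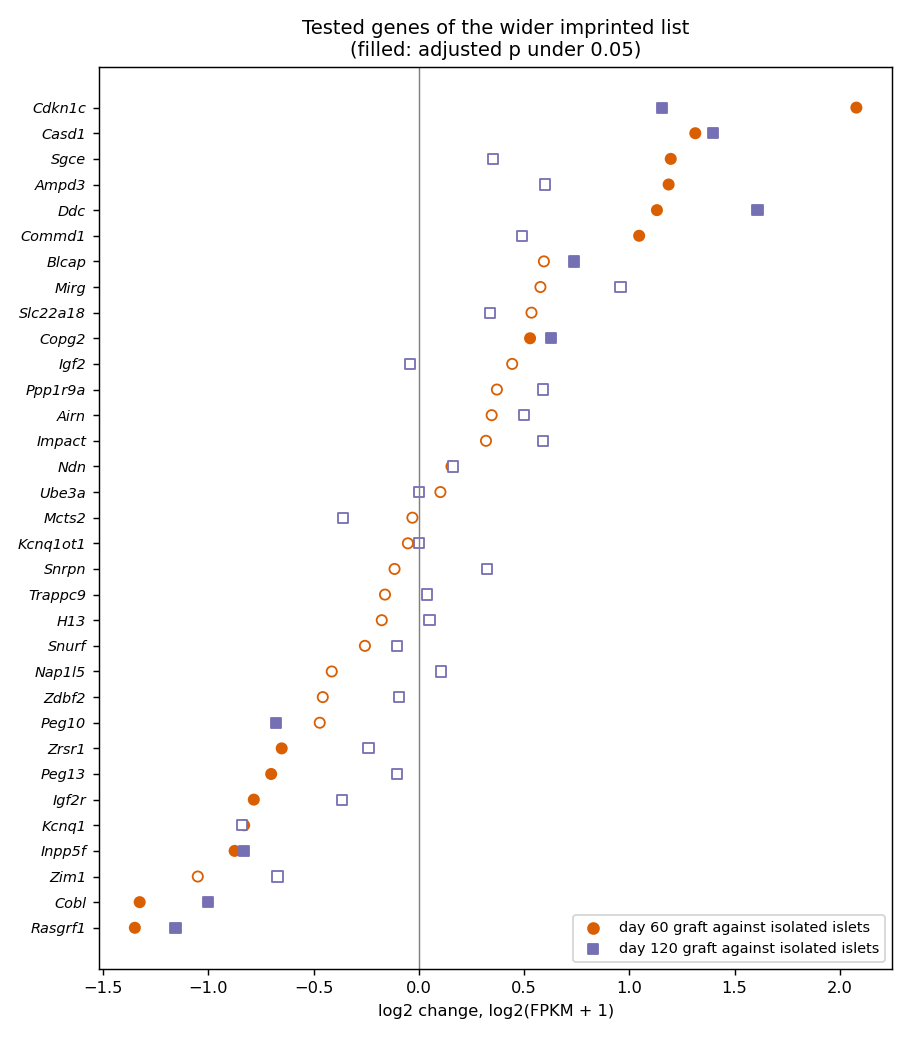
Log2 changes of the 33 tested genes of the wider imprinted list in day 60 grafts (circles) and day 120 grafts (squares) against the same isolated islets, ordered by the day 60 value. Filled symbols passed an adjusted p of 0.05. The list spreads to both sides of 0, with Cdkn1c and Casd1 at the top and Cobl and Rasgrf1 at the bottom.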

How the data were processed

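The authors deposited 1 table of FPKM values. TopHat2, Cufflinks 2.1.1 and build mm9 are named, per the submitters' processing notes, and the gene annotation, strand use and scaling between libraries are not given in the sources used here. Per the labels' protocols, cDNA came from a SMARTer low-input kit. Summed FPKM ran from 396769 to 786366 per library, and the read depth is unknown. The highest sums, 684417 and 786366, belonged to islet libraries 3 and 4. Only these held a value for the insulin gene Ins2, namely 293150 and 316265. Ins2 was listed at 0 for every graft and for islet libraries 1 and 2. The other insulin gene, Ins1, was listed at 0 for day 60 graft replicate 4 alone. A listed 0 thus need not mean absent RNA, and the reason was not tested.

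Values were taken as log2(FPKM + 1), which understates changes of low genes. All 13433 genes with at least 1 FPKM in at least 4 libraries were fitted with limma 3.58.1 (R 4.3.3, statmod 1.5.0) on 12 libraries with group as the term, a variance trend and robust variances. Each gene thus has the same SE in every comparison, even where the groups spread unequally. The fit was tried on simulated data with equal spread in all groups and unrelated libraries, which does not cover the unequal spread seen here. Ratios used exact permutation. Members and lists were chosen with earlier results of these data known. Named were all 10 members, the 2 genes most like each, and 12 of the wider list. Of these 12, Cobl, Casd1, Rasgrf1, Ampd3, Commd1 and Sgce were picked for the smallest p at day 60 against isolated islets. The rest of the 12 were named whatever their result. Genes beyond these are marked.

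Same-numbered day 60 and day 120 grafts deviated together from their group means (correlations 0.18 to 0.442). Different numbers gave -0.383 to 0.0982, and centring within groups of 4 pushes these downwards. No label says what the numbers mark, so a pairing is not established. Same-numbered isolated islets did not deviate together with either graft group (-0.0784 to 0.0199). Settings tried were pseudocounts, filters, scalings, a replicate block, array weights (which did not fully converge), fits of 2 groups, and libraries left out.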

Additional observations from a re-analysis of the deposited data

Results flagged for a closer look

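In 36 sets of 4 libraries (the 10 genes in FPKM and the Rian to Meg3 ratio, plain and as log2, in 3 groups) a sample far from the others was looked for, and 2 sets had one. The ratio of Rian to Meg3 was 0.836 in day 60 graft replicate 1, against 0.261 to 0.322 in the other day 60 grafts, a gap of 0.895 of the whole range. On the log2 scale the gap was 0.821 of the range, which does not pass. Nnat was 20.5 FPKM in isolated islet replicate 3, against 18.6 to 18.8 FPKM in the other isolated islets, a gap of 0.857 of the range. Chance gives about 1 in 20 such sets. The Nnat gap is small beside the spread of Nnat in grafts.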

How the results depend on the processing

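Mest at day 60 passed under every setting run. Against isolated islets, 2 genes were called at day 60 and 3 at day 120, and 0 between day 120 and day 60. At day 60 the count was 4 with no filter (32.9% of all tested genes called). That setting tested all 10 members, and its added calls were Dlk1 and H19. Of the 8 members otherwise tested, the count was 4 with upper-quartile scaling (43.1%), with the sum without hormone and acinar genes (36.5%) and without both grafts numbered 1 (46.3%). It was 6 with array weights (77.1%), and 1 with endocrine marker scaling (23.9%) or without both grafts numbered 4 (39.8%). At day 120 it was 0 with endocrine marker scaling (3.19%). Between day 120 and day 60 it was 4 with array weights (21.4%). Leaving out 1 library gave 1 to 3 calls at day 60, 1 to 3 at day 120 and 0 to 0 between them. The share of all tested genes called in these runs moved as well. It ran from 30.6% to 51.5% at day 60, 13.8% to 45.2% at day 120 and 0.00749% to 0.15% between them. The median log2 change of all genes at day 60 was 0.27 as deposited, 0.08 with upper-quartile scaling, 0.0243 with the sum scaling and 0.51 with endocrine marker scaling, and relative to it Mest was 0.94 to 1.09 and Plagl1 -1.32 to -1.26.

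Signs turned for genes that had not passed. At day 60 Meg3 was -0.0040 and -0.0018 with pseudocounts of 0.1 and 0.5. In the order Meg3, Rian, Gnas, day 60 values were -0.22, -0.21 and -0.0090 with upper-quartile scaling, -0.30, -0.29 and -0.0890 with the sum scaling and -0.21, -0.21 and -0.20 with quantile normalization. Endocrine marker scaling gave -0.10 for Rian and -0.16 for Gnas at day 120, and, between day 120 and day 60, -0.21 for Meg3, -0.38 for Rian, -0.0127 for Peg3 and -0.65 for Gnas. Array weights gave -0.0078 for Meg3 and -0.0221 for Gnas there. Without both grafts numbered 1, Nnat was -0.0530 at day 60, and between day 120 and day 60 Meg3 was -0.10 and Rian -0.0422. Without both grafts numbered 4, Meg3 was -0.27 and Rian -0.0726 at day 60. Without isolated islet replicate 1 and day 60 replicate 1 together, Nnat was -0.0666 at day 60, and between day 120 and day 60 Meg3 was -0.49, Rian -0.29 and Gnas -0.0012. The cause was not tested.

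Leaving out 1 library, day 60 values ran from -0.47 to 0.98 for Meg3, -0.37 to 0.62 for Rian and -0.0530 to 1.17 for Nnat. Day 120 minus day 60 ran from -0.49 to 0.97 for Meg3, -0.29 to 0.70 for Rian and -0.0848 to 0.24 for Gnas. The Rian to Meg3 log2 ratio ran from -0.36 to 0.20 at day 60, -0.30 to -0.0486 at day 120 and -0.36 to 0.20 between them, and Dlk1 to Meg3 from -1.26 to 0.17, -1.20 to -0.63 and -0.99 to 0.44. The replicate block over all 12 libraries called Peg3 at day 60 (-1.25, adjusted p = 0.0362) and lost Grb10 at day 120 (-0.62, 0.0533). It changed no other call. The block over the 8 grafts was chosen after the data had been seen, and it called 3 of 13105 genes between day 120 and day 60, of which 0 were members. Depth is unknown, so no counting interval is given for Dlk1 and H19.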

Other observations

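Some imprinted genes of the wider list reached 1 FPKM in too few libraries for the test but were high in day 60 replicate 1. The organic cation transporter gene Slc22a3 had 11.1, 1.23, 3.79 and 0.284 FPKM in day 60 grafts, 0.880, 0.345, 0.990 and 0.415 in day 120 grafts and 0.046 to 0.089 in isolated islets. The receptor gene Gpr1 had 5.25, 0.376, 0.768 and 0.382 FPKM in day 60 grafts and 0.212 to 0.669 in day 120 grafts, against 0 to 0.058 in isolated islets. Both were chosen after their values were seen, and the part of the fat and fibroblast RNA in that library was not tested.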
